A study of Bos taurus with 12 samples.

Results

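The 4 miRNAs described here are bta-miR-126-3p and bta-miR-126-5p, both arms of a hairpin that is a hallmark of the endothelium, and bta-miR-221 and bta-miR-222, a pair with a common seed. They were taken by name from the 783 bovine miRNAs of the deposited table, no value entering the rule, although earlier results of these data were known when they were chosen. All 4 were present in it. The table covered small RNA of extracellular vesicles (EVs, membrane-bound particles shed by cells) from blood plasma of 6 crossbred beef heifers, each bled on Day 7 of its estrous cycle, once without stimulation (U) and once with superstimulation (S). All heifers were hormonally synchronized before the U cycle. Superstimulation followed, with decreasing doses of follicle-stimulating hormone and with prostaglandin injections, and then insemination. Ovarian response, high (H) or low (L), was known only after the S cycle, and 3 H and 3 L heifers were chosen for sequencing from the extremes of a larger group. This gave the groups UL, UH, SL and SH with 3 libraries each, and the U groups hold the same heifers as the S groups before any stimulation. The study gave an age range for all heifers together, and the labels gave no ages per group. Plasma EVs come from many cell types at once, so neither arm marks the endothelium alone, and fewer EVs of a cell type cannot be told apart from less of a miRNA per EV.

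miR-126 is processed from a hairpin in the gene of EGFL7, an endothelial secreted factor. In endothelial cells its 3p arm represses SPRED1 and PIK3R2, inhibitors of VEGF signalling, and its 5p arm represses DLK1, an inhibitor of endothelial proliferation. Megakaryocytes and platelets also carry miR-126. miR-221 and miR-222 are transcribed together, repress the KIT receptor and the cell cycle inhibitor CDKN1B, and are described as restraining angiogenesis in endothelial cells and as promoting growth of vascular smooth muscle. Follicle growth and the formation of a corpus luteum are accompanied by rapid growth of new vessels, which is why vascular miRNAs are of interest in this setting.

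The sequences of the 4 mature miRNAs, as the deposited table gives them, are shown because the seed, bases 2 to 8 in capitals, sets which transcripts each can recognize, and because they show which members could be confused in mapping.
bta-miR-126-3p: cGTACCGTgagtaataatgcg
bta-miR-126-5p: cATTATTActtttggtacgcg
bta-miR-221: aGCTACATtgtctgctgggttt
bta-miR-222: aGCTACATctggctactgggt
bta-miR-221 and bta-miR-222 had the same seed, and no other entry among the 783 had it. The first 8 bases of this pair were identical, and from there on they diverged, with 11 of the 21 positions compared holding the same base. Each miR-126 arm had a seed of its own that no other entry shared. The number of other entries within 2 mismatches of any member was 0, so reads with a perfect match could not be split between near-identical copies.

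The arms of miR-126 also face each other in the hairpin stem. In the following lines the capitals mark the bases of the uninterrupted complementary stretches, 10 bases in one and 6 in the other, so that 16 of 21 bases of each arm lay in them.
bta-miR-126-5p: CATTATTACTtttGGTACGcg
bta-miR-126-3p: CGTACCgtgAGTAATAATGcg
In the RefSeq annotation of assembly ARS-UCD2.0, which is not the build used for mapping, MIR126 lay within EGFL7. MIR221 and MIR222 both lay within the lncRNA gene LOC132344329, and each was the nearest neighbour of the other.

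Libraries held 21466 (SH2) to 77433 (SH3) UMI-collapsed reads of known miRNAs. Of the 783 miRNAs, 336 had at least 1 read. Values below are reads after TMM normalization, scaled to the mean depth of the 12 libraries and called normalized reads. On this scale 3 reads corresponded to 1.82 (SH3) to 6.08 (SH2) normalized reads. Libraries of a group differed from each other by more than sampling noise in all 4 groups, with a chi-square per degree of freedom of 9.22 to 81.2, and were counted separately. SH2 was the smallest library, and in the SH group it stood apart from SH1 and SH3 in both miR-126 arms. Fitted differences of these arms that involve it are given with and without it.

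bta-miR-126-3p was among the most abundant miRNAs of plasma EVs. It ranked between place 2 and place 6 in every library and took 3.04 to 20% of all known miRNA reads, with a median of 11.7%. Its normalized reads in UL were 3573, 6283 and 5529 in libraries 1 to 3, and in UH 5867, 10631 and 4124. In SL the values were 3051, 5664 and 4666, and in SH they were 2031, 6940 and 1433. SH1 and SH3 were the lowest of all 12 libraries, UH2 was the highest, and SH2 was second to it. Group means followed the order UH (6874 ± 3369, SD, n = 3), UL (5129 ± 1398), SL (4460 ± 1319) and SH (3468 ± 3022), and each pair of neighbours in this order overlapped.

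bta-miR-126-5p followed the same order at a lower level, at rank 7 to 27. Its normalized reads were 522.7, 781.8 and 893.3 in UL and 715.6, 1356 and 574.4 in UH. They were 504.3, 807.2 and 658.1 in SL and 231.7, 794.8 and 268.7 in SH. As for the other arm, SH1 and SH3 lay below all other libraries, while SH2 lay within the range of the other groups. The mean of UH was 882.1 ± 416.6 and that of UL 732.6 ± 190.1, ahead of SL with 656.5 ± 151.4 and SH with 431.7 ± 315 (SD, n = 3), and neighbouring groups overlapped.

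bta-miR-221 was found in all 12 libraries at 34 to 105 reads and rank 47 to 66. Its normalized reads were 63.25, 61.05 and 65.8 in UL, 56.3, 35.18 and 61.46 in UH, 68.15, 56.66 and 54.58 in SL and 46.07, 68.94 and 63.83 in SH. The highest library had 1.96 times the normalized reads of the lowest, against 7.42 times for bta-miR-126-3p and 5.85 times for bta-miR-126-5p. The group means lay close together, at 63.37 ± 2.378 in UL, 59.8 ± 7.309 in SL, 59.61 ± 12 in SH and 50.98 ± 13.92 in UH (SD, n = 3). The lowest library was UH2, the one with the most miR-126.

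bta-miR-222 was near the limit of detection. It had 7, 3 and 7 reads in UL, 0, 7 and 6 in UH, 5, 5 and 3 in SL and 1, 2 and 9 in SH. In UH1 it had 0 of 30289 known miRNA reads, where the limit of 3 reads corresponds to a share of 0.0099%. The 95% interval of this count reached 3.69 reads and covers counting error only. No group stood apart, with means of 5.408 ± 2.328 (UL), 5.282 ± 0.8051 (SL), 3.627 ± 2.091 (SH) and 3.193 ± 2.775 (UH) normalized reads. Differences of this member between groups were not detectable at this depth.

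**Figure D1:**
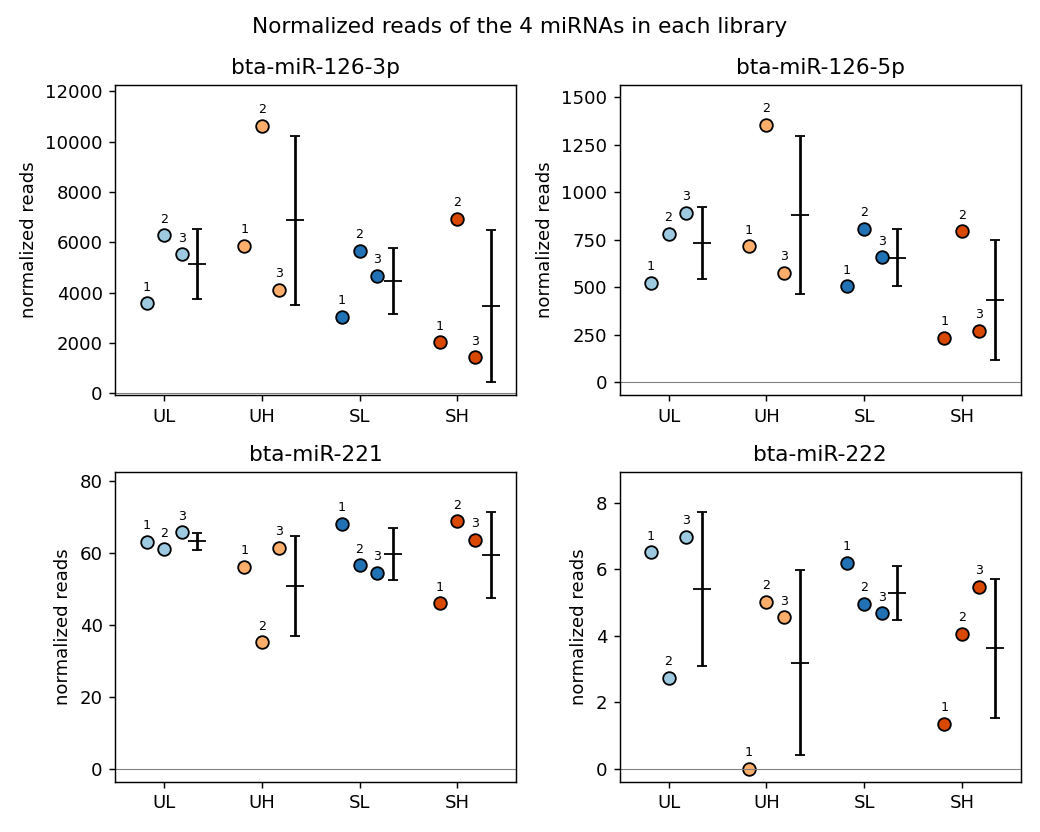
Normalized reads (vertical axis, linear) of each miRNA in the libraries of UL, UH, SL and SH, with the library number above each point and the group mean ± SD beside it. For both miR-126 arms, SH1 and SH3 are the lowest points and UH2 the highest, whereas the means of bta-miR-221 lie between 50.98 and 63.37.

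The H and L heifers were first compared before stimulation, in UH vs UL, the question being whether levels differed ahead of treatment. Following the study's thresholds, calls required a log2 difference of 1 or more in either direction together with an unadjusted limma P no higher than 0.05. Among all miRNAs tested, 2.64% were called in this comparison, and 0 of the 4 members were. The number of members with an unadjusted P within 0.05 was also 0, and limma-voom likewise called 0 of the 4. The log2 difference (UH minus UL) was 0.35 for bta-miR-126-3p (95% CI -0.47 to 1.17), 0.20 for bta-miR-126-5p (-0.50 to 0.90) and -0.35 for bta-miR-221 (-1.06 to 0.36). These intervals leave room for differences of about the size of the threshold. For bta-miR-222 the interval ran from -2.69 to 0.86. The higher miR-126 values of UH rested on UH2. Without it the log2 differences were -0.02 for the 3p and -0.16 for the 5p arm, and without UL1 they were 0.11 and -0.02. The Benjamini-Hochberg adjusted P from limma was 0.93 for each member.

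After superstimulation, in SH vs SL, 0 of 4 members were called at a background of 5.47%, with 0 members within an unadjusted P of 0.05 and 0 called by limma-voom. The log2 difference (SH minus SL) was -0.67 for bta-miR-126-3p (SE 0.60, 95% CI -1.99 to 0.66, limma, Benjamini-Hochberg adjusted P = 0.697) and -0.81 for bta-miR-126-5p (SE 0.48, 95% CI -1.87 to 0.25, adjusted P = 0.667). For bta-miR-221 it was -0.02 (95% CI -0.84 to 0.81). The miR-126 values depended on single SH libraries. They were -0.20 for the 3p and -0.59 for the 5p arm without SH3, and -0.45 and -0.48 without SH1. Without SH2, the log2 difference was -1.34 for bta-miR-126-3p and -1.37 for bta-miR-126-5p, and both were called. The scale on which reads are compared also shifted all miRNAs here and in the U cycle. With the deposited tags per 1000000 mapped reads as the scale, the median log2 difference of all miRNAs in SH vs SL was 0.07 in place of -0.08. Relative to this median, bta-miR-126-3p was at -0.57 in place of -0.58 and bta-miR-221 at 0.07 under both scales. In UH vs UL the median was 0.16 in place of 0.04, and relative to it bta-miR-126-3p was at 0.36 in place of 0.31.

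The cycles were then compared within each response class. In SH vs UH, 1 of 4 members, bta-miR-126-5p, was called, against 5.66% of all miRNAs tested. It was 2.24-fold lower in SH, with a log2 difference of -1.16 (SE 0.50, 95% CI -2.21 to -0.11, limma, Benjamini-Hochberg adjusted P = 0.735). bta-miR-126-3p differed as much, by -1.22 (SE 0.62, CI -2.52 to 0.07), but its unadjusted P missed the threshold in the fit without heifers as a block (limma adjusted P = 0.735). With heifer as a block in limma, both arms were called. The values of SH and UH overlapped for both arms through SH2, which was above UH1 and UH3. Leaving out SH2 gave -1.90 for the 3p and -1.72 for the 5p arm, both called. The 5p arm was no longer called without UH1 (-1.26), UH2 (-0.80), SH1 (-0.83) or SH3 (-0.94). bta-miR-221 had a log2 difference of 0.24 (95% CI -0.77 to 1.25), and bta-miR-222 one of 0.40 (-1.51 to 2.32).

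In SL vs UL, 0 of 4 members were called at a background of 2.34%, 0 were within an unadjusted P of 0.05, and limma-voom called 0 as well. The log2 differences were -0.21 for bta-miR-126-3p (95% CI -0.89 to 0.48 from limma), -0.15 for bta-miR-126-5p (-0.73 to 0.43), -0.09 for bta-miR-221 (-0.64 to 0.46) and 0.04 for bta-miR-222 (-1.37 to 1.45). For the miR-126 arms these intervals did not reach -1, the size of the call threshold, on the spread of SL and UL alone. The same estimates had an unadjusted limma P of 0.699 and 0.738 with all 4 groups in the fit, against 0.518 and 0.583. Without UL1 the log2 differences were -0.45 for the 3p and -0.37 for the 5p arm. The limit therefore depends on the fit and the libraries.

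**Figure D2:**
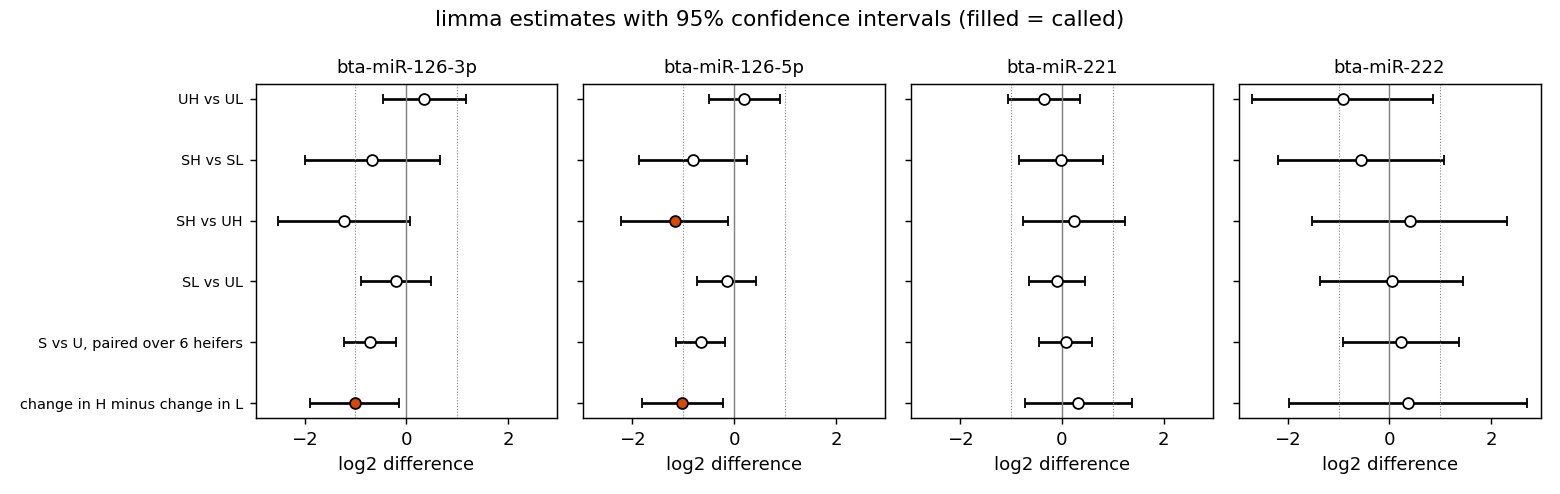
Log2 difference (horizontal axis) with 95% confidence interval from limma for each miRNA in the 6 comparisons, filled where called, with dotted lines at -1 and 1. The miR-126 estimates lie to the left in SH vs UH, in the paired change and in the difference between H and L, while the bta-miR-221 intervals span 0 throughout.

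Because the same heifers gave both cycles, the change was also taken within each animal. In bta-miR-126-3p all 6 heifers had fewer normalized reads in the S cycle. The S minus U change on the log2 scale was -1.53, -0.62 and -1.52 in heifers H1, H2 and H3, and -0.23, -0.15 and -0.24 in L1, L2 and L3. In H1 this was a step from 5867 to 2031 normalized reads, and in L1 one from 3573 to 3051. A level lower in all 6 heifers was found for 2.1% of the 238 miRNAs tested. The mean change was -0.72 (SE 0.24, 95% CI -1.23 to -0.20, limma, Benjamini-Hochberg adjusted P = 0.32). An exact sign-flip permutation test gave p = 0.03125, the smallest that 6 heifers allow, and 0.125 after adjustment over the 4 members.

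bta-miR-126-5p was lower in 5 of 6 heifers, with changes of -1.62, -0.77 and -1.09 in H1 to H3 and of -0.05, 0.05 and -0.44 in L1 to L3. Its mean change was -0.66 (SE 0.23, 95% CI -1.14 to -0.17, limma, Benjamini-Hochberg adjusted P = 0.32), and the exact sign-flip permutation test gave p = 0.0625. Both arms passed the P threshold but not the fold threshold, so 0 of 4 members were called in the paired fit by limma and by limma-voom, against 5.46% of all miRNAs. Without the heifer block, neither arm passed the P threshold. Without heifer H2, which gave SH2, the mean change was -0.74 for the 3p and -0.63 for the 5p arm.

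The other pair showed no common direction. For bta-miR-221 the changes were -0.28, 0.95 and 0.05 in H1 to H3 and 0.11, -0.11 and -0.27 in L1 to L3, that is 3 heifers each way, with a mean of 0.08 (95% CI -0.45 to 0.60 from limma). Heifer H2 stood out with a step from 35.18 to 68.94 normalized reads, which rested on 49 reads in UH2 and 34 in SH2. For bta-miR-222, 3 heifers were higher and 3 lower, with a mean of 0.22 (95% CI -0.92 to 1.36). In heifer H1 it had 0 reads in the U and 1 in the S cycle, both at or below the limit of 3 reads, so no fold is given.

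**Figure D3:**
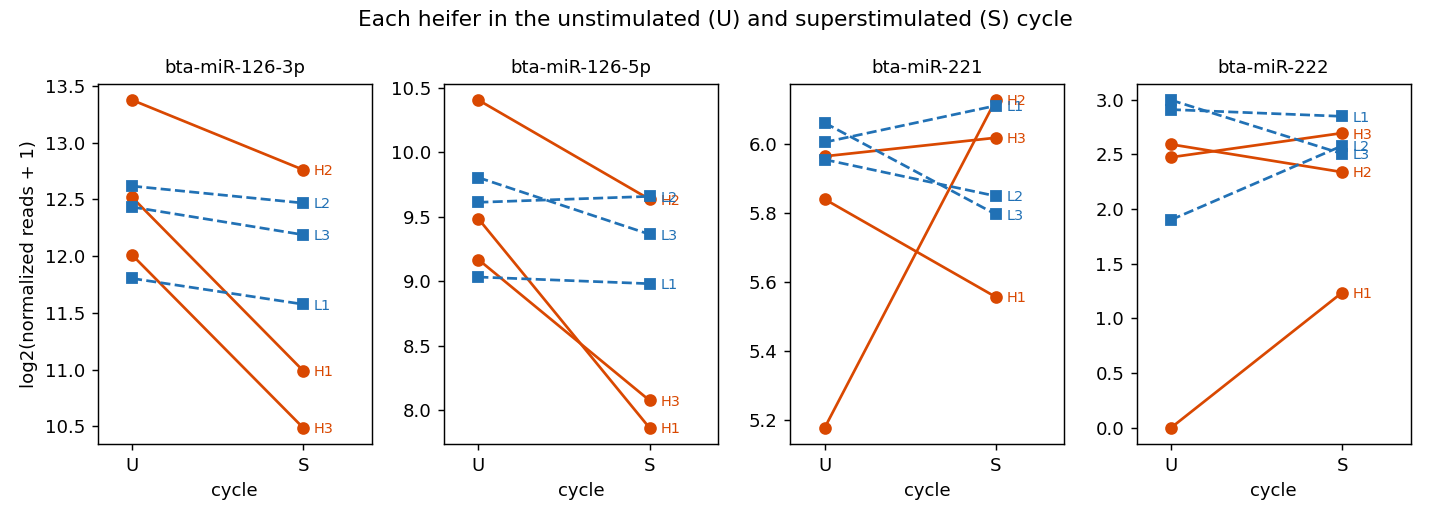
log2(normalized reads + 1) of each heifer in the U and the S cycle, with H heifers as solid and L heifers as dashed lines. The vertical axes of the panels differ in range. The lines of both miR-126 arms run steeply down in H1 and H3, less so in H2 and almost level in the L heifers, and the lines of bta-miR-221 cross.

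An interaction term fitted to the 12 libraries tested whether H and L heifers differed in their change between cycles. Of the 4 members, 2 were called, against 5.46% of all miRNAs. These 2 are the arms of the same hairpin, so they do not count as independent calls. The change in H minus the change in L was -1.02 for bta-miR-126-3p (SE 0.40, 95% CI -1.89 to -0.15, limma, Benjamini-Hochberg adjusted P = 0.7) and -1.01 for bta-miR-126-5p (SE 0.37, 95% CI -1.81 to -0.21, adjusted P = 0.7). For the 3p arm the mean change was -1.22 ± 0.53 in H and -0.21 ± 0.05 in L heifers (SD, n = 3). In both arms every change of the H heifers lay below every change of the L heifers, a pattern found in 7.14% of the miRNAs tested. An exact permutation test of the 3 H against the 3 L changes gave p = 0.1 for each arm, the smallest this design allows. The estimates lay just past the fold threshold. With median-of-ratios size factors they were -0.97 and -0.96, short of it. Both calls were lost without heifer L1 (-1.03 and -0.96), L2 (-0.99 and -0.92) or H1 (-0.86 and -0.78), and one of them without L3 or H3. Without H2 the differences were -1.32 and -1.21, both called. Without heifer as a block the estimates were the same and neither was called. The block rests on the shared library number. For bta-miR-221 the difference was 0.33 (95% CI -0.72 to 1.38), and for bta-miR-222 it was 0.36 (-1.98 to 2.70).

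The ratio of the miR-126 arms needs no library size, since both are counted in the same library. There were 6.84, 8.04 and 6.19 reads of bta-miR-126-3p per read of bta-miR-126-5p in UL, 8.2, 7.84 and 7.18 in UH, 6.05, 7.02 and 7.09 in SL and 8.77, 8.73 and 5.33 in SH. The mean over the 12 libraries was 7.27 ± 1.08 (SD). SH3 was the lowest, with a 95% exact binomial interval of 4.82 to 5.92, and SH1 the highest, with 7.48 to 10.3, so these intervals did not overlap within one group. SH1 and SH3 thus had similarly low levels of both arms at the highest and lowest arm ratios.

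No difference of the arm ratio between groups passed a test, but 3 libraries against 3 cannot give an exact p below 0.1. On the log2 scale it was 0.147 higher in UH than in UL (exact permutation test, p = 0.3) and 0.147 higher in SH than in SL (exact p = 0.6). Without SH3 the second difference was 0.385 (exact p = 0.1). The paired change between cycles was -0.0588 (exact sign-flip permutation test, p = 0.625), with values of 0.0965, 0.156 and -0.429 in H1 to H3 and -0.176, -0.196 and 0.196 in L1 to L3. The H and L changes differed by -0.000246 (exact permutation p = 1). Adjusted over these 4 tests by Benjamini-Hochberg, p was 0.833 for the first 3 and 1 for the last.

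**Figure D4:**
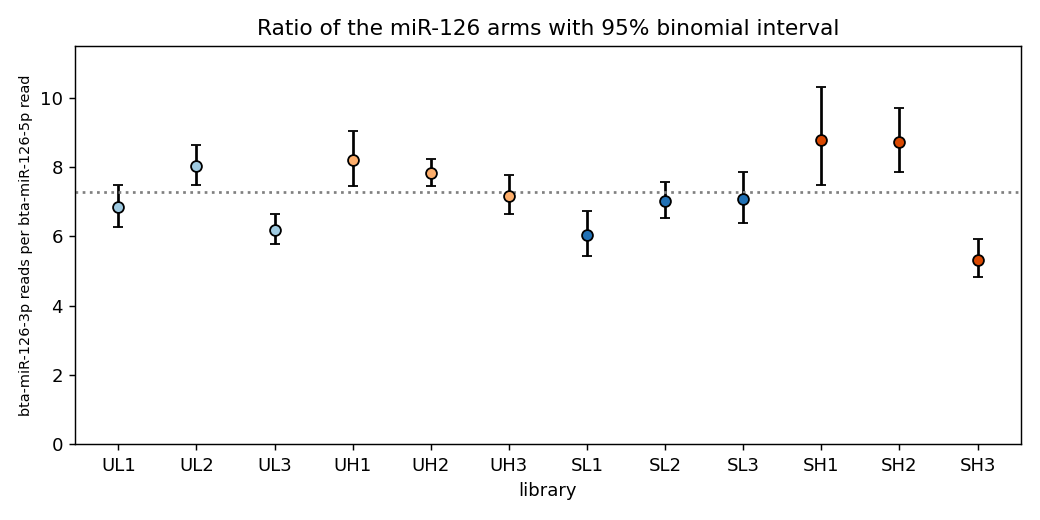
Reads of bta-miR-126-3p per read of bta-miR-126-5p in each library (vertical axis from 0), with 95% exact binomial intervals and a dotted line at the mean of 7.27. The groups overlap, and SH3 at 5.33 lies below all other libraries.

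Of 78 hairpins with both arms listed under one name, 3 had at least 10 reads of each arm in every library. The SD of the log2 arm ratio over the 12 libraries was 0.221 for miR-126, of which counting alone would give 0.0698. It was 0.538 for miR-142, a hairpin of blood cells (counting alone 0.204), and 0.667 for miR-423 (counting alone 0.232). In all 3 the libraries varied more than counting error gives. The major arm was 3p in miR-126 and 5p in the other two.

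bta-miR-221 was the major member of its own pair. Over the summed reads it made up 92.2% of the pair in UL (95% exact binomial interval 87.8 to 95.4%), 92.8% in UH (88 to 96.1%), 91.9% in SL (86.5 to 95.6%) and 93.5% in SH (88.9 to 96.6%). Over all libraries there were 689 reads of bta-miR-221 and 55 of bta-miR-222. The intervals of the 4 groups overlapped almost wholly.

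The miR-126 reads can also be set against the summed reads of bta-miR-221 and bta-miR-222 in the same library, again without a library size. This ratio was chosen after the values were seen and is given as a description. It ran from 24.6 in SH3 to 298 in UH2. In H1, H2 and H3 it stood at 117, 298 and 71.2 in the U cycle and at 47.7, 106 and 24.6 in the S cycle. In L1, L2 and L3 it stood at 58.7, 111 and 88.2 and then at 47.8, 105 and 89.8. The log2 change was therefore -1.29, -1.49 and -1.54 in the H heifers and -0.30, -0.08 and 0.03 in the L heifers. On this ratio heifer H2 resembled H1 and H3, unlike in the normalized reads of miR-126 alone. The denominators of H2 were 56 reads in UH2 and 36 in SH2. In this heifer the normalized reads changed by -0.62 for bta-miR-126-3p and by 0.95 for bta-miR-221. Its resemblance to H1 and H3 therefore rested in large part on the denominator.

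**Figure D5:**
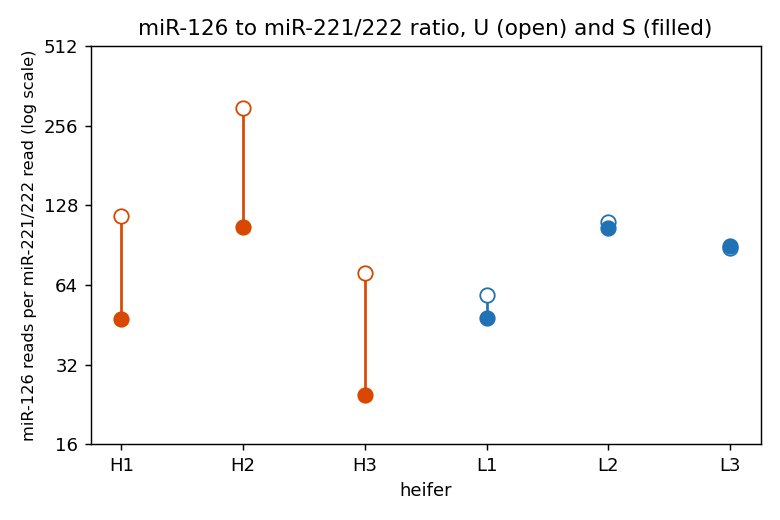
Summed reads of the miR-126 arms per summed read of bta-miR-221 and bta-miR-222 (vertical axis on a log scale) for each heifer, in the U (open) and the S cycle (filled). All 3 H heifers have a filled point well below the open one, and in L2 and L3 the points nearly coincide.

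The members were next set beside other miRNAs. Among the 83 miRNAs whose mean reached 20 reads, the ones closest to bta-miR-126-3p over the 12 libraries were miR-1468 (Spearman's rho 0.937), bta-miR-126-5p (0.881) and miR-30a-5p (0.867). The closest to bta-miR-126-5p were miR-1468 (0.93), bta-miR-126-3p (0.881) and miR-30a-5p (0.846). So the other arm of the hairpin came second to miR-1468 for both. For bta-miR-221 the closest were miR-15b (0.476), miR-361 (0.42) and miR-25 (0.413), and its correlation with bta-miR-222 was 0.434. For bta-miR-222 they were miR-339a (0.713), miR-145 (0.65) and miR-2284x (0.587). Between bta-miR-126-3p and bta-miR-221 rho was -0.182. These are descriptions over 12 libraries from 6 heifers, which share normalization factors. Those of bta-miR-222 rest on 0 to 9 reads per library.

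Of 22 other miRNAs known from endothelium and angiogenesis, 21 had a read. In UH vs UL and in SL vs UL, 0 of 19 tested were called. In SH vs SL 1 of 18, in SH vs UH 1 of 16 and in the interaction 1 of 19 was called lower, each time miR-17-5p of the angiogenic miR-17-92 cluster. Over all miRNAs tested 5.47%, 5.66% and 5.46% were called in either direction, about the share of the list. miR-17-5p had log2 differences of -1.87 (SE 0.70), -1.80 (SE 0.81) and -2.18 (SE 0.85). It rested on 1 to 20 reads per library. In the paired change 1 of 19 was called lower, miR-20a of the same cluster (-1.33, SE 0.63), with 0 to 14 reads. The Benjamini-Hochberg adjusted P values from limma of these calls were 0.566 to 0.735. The median log2 difference of the list was -0.48 in SH vs SL, beside -0.08 for all miRNAs tested, -0.68 beside -0.14 in SH vs UH, and -0.42 beside -0.13 in the paired change. In UH vs UL it was 0.03 beside 0.04. miR-10b, the most abundant of the list, had a paired change of -0.49 (SE 0.20, limma adjusted P = 0.415) and was not called. The summed list ran from 634.6 (SH3) to 821.1 normalized reads (SH2) in SH and from 771.6 to 1289 in UH. Over the 12 libraries, rho of this sum was 0.79 with bta-miR-126-3p and 0.839 with bta-miR-126-5p. With bta-miR-221 it was -0.315 and with bta-miR-222 0.0629. Whether they share a source was not tested.

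Among markers of other sources of plasma EVs, the sum of those of vascular smooth muscle and mesenchymal cells ran opposite to the miR-126 arms. The 6 miRNAs of vascular smooth muscle and mesenchymal cells were all detected, and their sum was 99.32 to 188.8 normalized reads in UL, 106.3 to 286.8 in UH and 107.4 to 557.6 in SL. In SH it was 1262 in SH1, 93.27 in SH2 and 759.9 in SH3, that is highest in the libraries with the least miR-126. The library with the highest sum was the one with the lowest bta-miR-126-5p in 4 of 4 groups and the one with the lowest bta-miR-126-3p in 3 of 4. Over the 12 libraries, rho between this sum and bta-miR-126-3p was -0.944, with bta-miR-126-5p it was -0.881, and with bta-miR-221 it was -0.035. The sum gives most weight to its most abundant member miR-199a-3p, with a mean of 216.8 reads and 43 to 742 reads per library. miR-199a-3p was called higher, as 1 of 6 tested, in SH vs UH and in the paired fit, against 5.66% and 5.46% of all miRNAs. In the paired fit it was higher in the S cycle by 1.56 (SE 0.37, limma, Benjamini-Hochberg adjusted P = 0.153). The median paired change of the 6 was 0.54, beside -0.13 for all miRNAs tested. The part of these EVs in the miR-126 differences was not tested.

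The 8 platelet miRNAs were all detected, 0 of 8 were called in any of the 6 comparisons (2.34 to 5.66% of all miRNAs were), and their sum was 1823 to 2158 in UL, 1765 to 2926 in UH, 2063 to 2370 in SL and 1790 to 3185 in SH. The rho of this sum was -0.685 with bta-miR-126-3p and -0.65 with bta-miR-126-5p. The part of platelet EVs in the miR-126 levels was not tested. The sum of the 6 erythrocyte miRNAs, of which 5 had a read, was 2168 to 3494 in UL, 1653 to 4074 in UH, 1755 to 3171 in SL and 2631 to 9258 in SH, with SH3 the highest. The rho of the erythrocyte sum was -0.182 with bta-miR-126-3p and -0.252 with bta-miR-126-5p. The haemolysis ratio of miR-451 to miR-23a ran from 0.0854 in UH2 (17 and 199 reads) to 0.639 in SH1 (23 and 36 reads). The part of haemolysis in the miR-126 levels was not tested. Leukocyte miRNAs, all 8 detected, summed to 2846 to 3175 in UL and 2608 to 4469 in UH. In SL they summed to 3741 to 5224 and in SH to 2803 to 4100. Their median log2 difference in SL vs UL was 0.45, beside -0.07 for all miRNAs. miR-181a, at 13 to 55 reads per library, was called higher in SL vs UL and lower in SH vs SL and in the interaction. Each time it was 1 of 8 tested, against 2.34%, 5.47% and 5.46% of all miRNAs. The Benjamini-Hochberg adjusted P values from limma of these calls were 0.667 to 0.7005. The rho of the leukocyte sum with bta-miR-126-3p was 0.0979. Of the 7 muscle miRNAs 6 had a read. miR-206 was called lower in H than in L heifers in both cycles, on 2 to 94 reads per library. It was 1 of 5 tested in UH vs UL and 1 of 4 in SH vs SL, against 2.64% and 5.47% of all miRNAs. Its Benjamini-Hochberg adjusted P from limma was 0.322 and 0.667. The sum of the muscle miRNAs was 1733 in UL1 against 39.49 to 167.3 in the other libraries. The rho of this sum with bta-miR-126-3p was -0.119. The 3 liver miRNAs were all detected, and 0 of 3 were called in any of the 6 comparisons (2.34 to 5.66% of all miRNAs were). The rho of their sum with bta-miR-126-3p was 0.112. The most abundant members were miR-223 in the platelet list, miR-486 in the erythrocyte list and miR-150 in the leukocyte list. In the muscle and liver lists they were miR-1 and miR-122.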

How the data were processed

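Small RNA libraries of plasma EVs (12, 3 per group) were made by the authors with a UMI kit. They used Cutadapt to collapse reads by UMI, Bowtie2 2.2.2 (per the submitters' processing notes) to map to UMD3.1, and annotated perfect matches against miRBase. The deposited values are a score: tags per 1000000 mapped reads, cut by the authors to whole numbers. Each library has a fixed step (4.4784 to 7.9343), and reads were taken as the value divided by the step, rounded up, which gave back 100% of the values. The number of unused sample columns was 0. As the values are a normalized unit, the main fits used no count model, and limma-voom on the reads was run only as an alternative.

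Reads were TMM-normalized with own code. limma 3.58.1 (R 4.3.3; lmFit, eBayes with trend) was fitted to log2(normalized reads + 1), two-sided, after a filter (a read in 2 or more of the 3 libraries in either group), and checked on simulated data. P values were adjusted by Benjamini-Hochberg over all miRNAs tested. Fits between 2 groups used only these. The paired and interaction fits had heifer as a block, taken from the library number, since the study sampled the same heifers in both cycles. Deviations of same-numbered libraries from their group means correlated at 0.0509, 0.212 and 0.131 (H) and 0.098, 0.0557 and -0.0472 (L) over 238 miRNAs. Exact tests used Python 3.11.15 with scipy 1.17.1. Named besides the members were the 3 closest miRNAs of each and, of each marker list (textbook knowledge), the called members described and the most abundant. Alternatives were other scalings, filters, pseudocounts (0.5 and 2), limma-voom, the block, all groups in one fit and leaving out each library. The members and lists were chosen with earlier results of these data known.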

Additional observations from a re-analysis of the deposited data

Results flagged for a closer look

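The paired change of bta-miR-221 in heifer H2, 0.951 on the log2 scale, lay far from the other 5 heifers: its gap to the nearest was 0.684 of the whole range. The cut-off for a value standing apart is passed by chance in about 1 of 20 groups, and the changes of 4 members were examined. It rested on 49 reads in UH2 and 34 in SH2. The change between cycles differed between H and L heifers by -1.02 for bta-miR-126-3p and by -1.01 for bta-miR-126-5p, with a Benjamini-Hochberg adjusted P = 0.7 from limma for each. The 3 H heifers each had a larger decrease than any L heifer.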

How the results depend on the processing

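No member's log2 difference that was called turned its direction under any alternative run. Of members called, SH vs UH gave 1, and 0 with median-of-ratios size factors or a mean of at least 10 reads, 2 with library sizes without TMM, no filter, limma-voom, heifer as a replicate block or all 4 groups in the fit, and 0 to 2 on leaving out a library. SH vs SL gave 0 to 2 (2 without SH2). The interaction gave 2, and 0 with median-of-ratios size factors, 1 with limma-voom, 0 with no replicate block, and 0 to 2 on leaving out a heifer. The replicate block changed no other call of a member.

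Of all miRNAs called, UH vs UL gave 6, with 10 for no filter, 1 for at least 10 reads and 5 to 10 on leaving out a library. SH vs SL gave 11, with 7 on the deposited scale, 4 for at least 10 reads, 18 with all groups and 8 to 34 on leaving out a library, the highest without SH2. SH vs UH gave 12, with 6 for at least 10 reads and 6 to 24 on leaving out a library. SL vs UL gave 5, with 0 for at least 10 reads, 3 with a pseudocount of 2, 8 with limma-voom, 3 with the replicate block, 10 with all groups and 7 to 15 on leaving out a library. The paired fit gave 13, with 7 on the deposited scale, 5 for at least 10 reads, 5 with a pseudocount of 2 and 7 to 13 on leaving out a heifer. The interaction gave 13, with 6 for at least 10 reads and 8 to 18 on leaving out a heifer. The mean paired change of bta-miR-126-3p ran from -0.829 to -0.552 on leaving out a heifer, each with p = 0.0625, the smallest that exact sign flips of 5 heifers allow.

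bta-miR-222 had no value under the filter of 10 reads. At 0 to 9 reads per library, differences in bta-miR-222 were not detectable.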
